A study of Lotus japonicus with 16 samples.

Results

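The genes described here are those that the authors listed as changed by high temperature in whole shoots of Lotus japonicus at sufficient phosphate. All rows of that comparison were taken, which gave 1667 genes of the 3958 listed in any of the study's 4 comparisons. The plants were accession MG-20, grown from germinated seedlings in hydroponic containers for 3 weeks of treatment, under 16 h light (200 µmol per square metre and second) and 8 h dark. Both groups received 64 µM phosphate, and the day and night temperatures were 23 and 22 °C in the favorable group and 30 and 29 °C in the warm group. Each replicate was a pool of 3 plants, and each group had 2 poly(A) RNA libraries. The labels give no separate control for the chamber, so chamber and temperature cannot be told apart.

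Moderate warming, below the range that kills tissue, is known in plants to change growth, leaf form and flowering through light and hormone signalling, and stronger heat induces chaperones that protect proteins. Warming also changes how fast a shoot grows and so how much phosphate it uses. Plants short of phosphate are known to release phosphate from lipids and nucleic acids and to raise phosphate uptake. The reference used here gives locus symbols and no product names for these genes, so no member is assigned to any of these roles, and the tissue label could not be checked against marker genes.

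For each gene the authors' deposited table gives 1 base mean, 1 log2 fold change with its standard error and 1 adjusted p, and values of single libraries were not analysed here. The level of a gene at each temperature was worked out from base mean and fold, in normalised counts. Levels and base means are not divided by gene length, so levels are compared within a gene, and an order of genes by them is an order of counts and not of transcript abundance. "Rose" and "fell" follow the authors' headings, read as higher or lower at the high temperature. The table does not name its reference group, and all directions would turn together under the other reading. In whole shoots, a change in the number of cells that express a gene and a change in RNA per cell cannot be told apart.

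High temperature raised 908 shoot genes and lowered 759. Of the 20144 genes behind the authors' adjustment, 8.28% were listed, with 4.51% rising and 3.77% falling. Every listed gene was chosen by this contrast, with an adjusted p under 0.05 and a change of at least 2-fold, so these counts describe the list and are not tested again. The genes just inside the fold limit were LOC130730655, LOC130714124 and LOC130714032, all falls that equal the limit to 2 decimals in the authors' deposited table. Just inside the adjusted p limit were LOC130741251 (0.0495), LOC130716229 (0.0496) and LOC130721849 (0.0499), by DESeq2 in the authors' deposited table. Genes just outside either limit were not analysed here.

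The list's make-up changed with base mean, which also sets how precisely a gene is counted. Of the 22 genes with a base mean under 10 normalised counts, 13 rose and 9 fell. Of the 531 genes with a base mean of 10 to 100 normalised counts, 66.7% rose. That share was 51.0% of 777 genes between 100 and 1000, and 47.3% of 273 genes between 1000 and 10000. Among the 64 genes at 10000 normalised counts or more, 16 rose and 48 fell.

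Large changes were mostly rises. A log2 fold change of 4 or more was listed for 80 genes that rose and 13 that fell, while changes between 1 and 2 log2 units were listed for 538 and 612. At base means of 100 or more, the same counts were 27 and 2 for the large changes and 385 and 502 for the small ones. In 26 rising and 6 falling genes the lower level was under 1 normalised count, where the fold is a fitted value. The identical rows of LOC130727573 and LOC130727575 are among them, and their reads cannot be divided between the 2 loci.

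**Figure D1:**
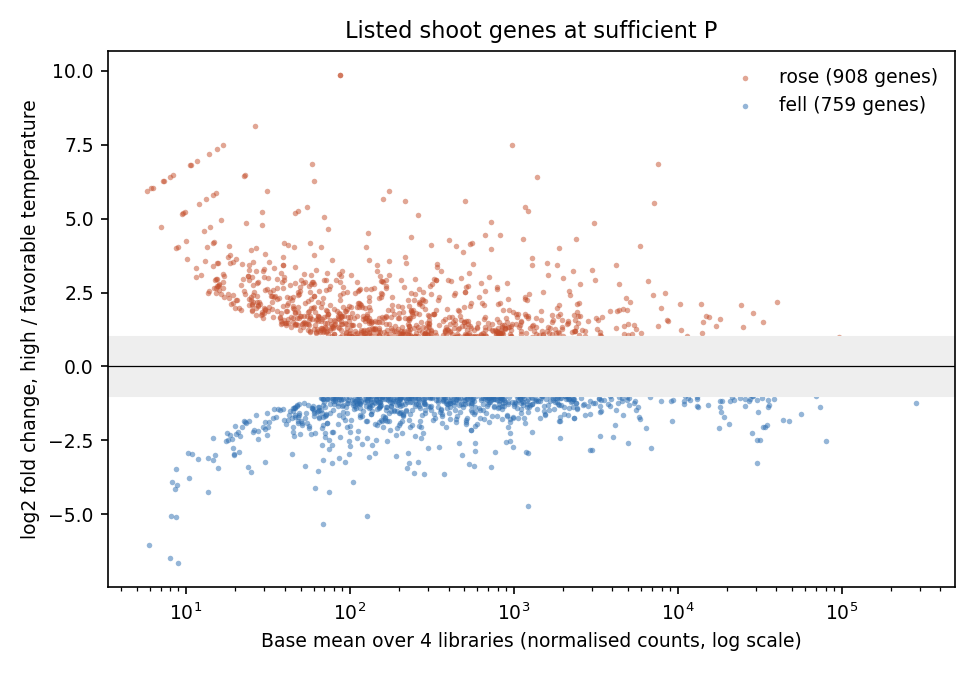
Deposited log2 fold change (high over favorable temperature, y axis) against base mean over the 4 libraries (normalised counts, log x axis) for the 908 genes that rose (orange) and the 759 that fell (blue). The grey band marks changes under 2-fold, which were not listed; 48 of the 64 genes at 10000 or more lie below it.

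Summed over the list in normalised counts, to which long genes add more, the falling genes lost more than the rising genes gained. Falling genes went from 3153458 normalised counts at the favorable temperature to 1160427 when warm. Rising genes went from 434100.1 to 1364955 normalised counts. The imbalance does not rest on the gene with the highest base mean: without LOC130714495 the falling genes' sum still fell by 1760219 normalised counts, against a gain of 930855 by the rising genes. The part that this imbalance plays in the folds, through the scaling between libraries, was not tested.

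The listed gene with the highest base mean, LOC130714495, fell from 402321 to 169509 normalised counts. The authors' deposited table gives this fall a log2 fold change of -1.25 (SE 0.14, 2 libraries a group). The next falls by difference of levels were those of LOC130732917, from 135891 to 23925 normalised counts, and LOC130728983, from 106367 to 41455. LOC130746932 fell from 85092 to 28211 normalised counts and LOC130749266 from 74453 to 20719. The log2 fold changes of these 4 genes lay between -2.51 and -1.36 in the authors' deposited table. Each of the 5 falls is many times its standard error, which was at most 0.17.

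Among the rises by difference of levels, LOC130746509 led, from 63700.1 to 128591 normalised counts. In the authors' deposited table this was just past a 2-fold change, at 1.01 log2 units (SE 0.19; adjusted p = 2.06e-06, DESeq2). LOC130732314 rose from 12810.1 to 45099.6 normalised counts and LOC130722210 from 9308 to 39213. The authors' deposited table gives log2 fold changes of 1.82 (SE 0.19) for the former and 2.07 (SE 0.13) for the latter. LOC130746506 (14738 to 66135 normalised counts) and LOC130746696 (17419 to 49008) changed by similar amounts but with less certainty. Their standard errors were 0.67 and 0.46, and their DESeq2 adjusted p-values 0.0098 and 0.0101, in the authors' deposited table.

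By the size of the change relative to its error, the strongest fall was that of LOC130738147, from 55132 to 5774 normalised counts. The authors' deposited table gives it a log2 fold change of -3.26 (SE 0.16; adjusted p = 2.48e-88, DESeq2). LOC130734339 fell from 5257 to 733 normalised counts, LOC130727943 from 8608 to 1416, LOC130722076 from 1046 to 103 and LOC130748820 from 51518 to 9181. The strongest rise was that of LOC130718498, from 233 to 4575 normalised counts. In the authors' deposited table it rose by 4.30 log2 units (SE 0.22; adjusted p = 1.04e-81, DESeq2). LOC130710575 rose from 187 to 2391 normalised counts, LOC130749566 from 717 to 7699 and LOC130728248 from 85.7 to 1362. All of these, with LOC130722210, are within the first 15 genes of the comparison by p.

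The top of that ranking held no small changes. All of the first 200 genes by p were listed, 102 as rises and 98 as falls. Of the first 500 genes, 482 were listed, of the first 1000, 817, and of the first 2000, 1206. The remaining genes of each rank range passed by p with a change under 2-fold, and their names and directions were not analysed here.

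Ranked by fold instead, other genes led. Among genes with a lower level of at least 10 normalised counts, the largest rise was that of LOC130736672, from 10.8 to 1939 normalised counts, or 7.49 log2 units (SE 1.49) by the authors' deposited table. LOC130716877 followed, from 130.3 to 15085 normalised counts, or 6.86 log2 units (SE 1.52) by the authors' deposited table. LOC130714536 rose from 32.3 to 2753 normalised counts with a much smaller error, 6.41 log2 units (SE 0.71) by the authors' deposited table. The other 7 rises, of LOC130732583, LOC130738431, LOC130723083, LOC130714388, LOC130721409, LOC130714457 and LOC130745577, had log2 fold changes of at least 4.86 in the authors' deposited table.

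Under the same limit, the 10 largest falls were smaller. LOC130738145 fell from 2356 to 90.1 normalised counts, which the authors' deposited table gives as -4.71 log2 units (SE 0.60). LOC130739534, at 195 normalised counts when cool, fell by 3.91 log2 units (SE 0.47) by the authors' deposited table. LOC130748296 went from 521 to 42.0 normalised counts, -3.63 log2 units (SE 0.27) by the authors' deposited table. The other 7 falls, of LOC130715554, LOC130722771, LOC130711109, LOC130740266, LOC130717268, LOC130722076 and LOC130746345, had log2 fold changes from -3.62 to -3.30 in the authors' deposited table.

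**Figure D2:**
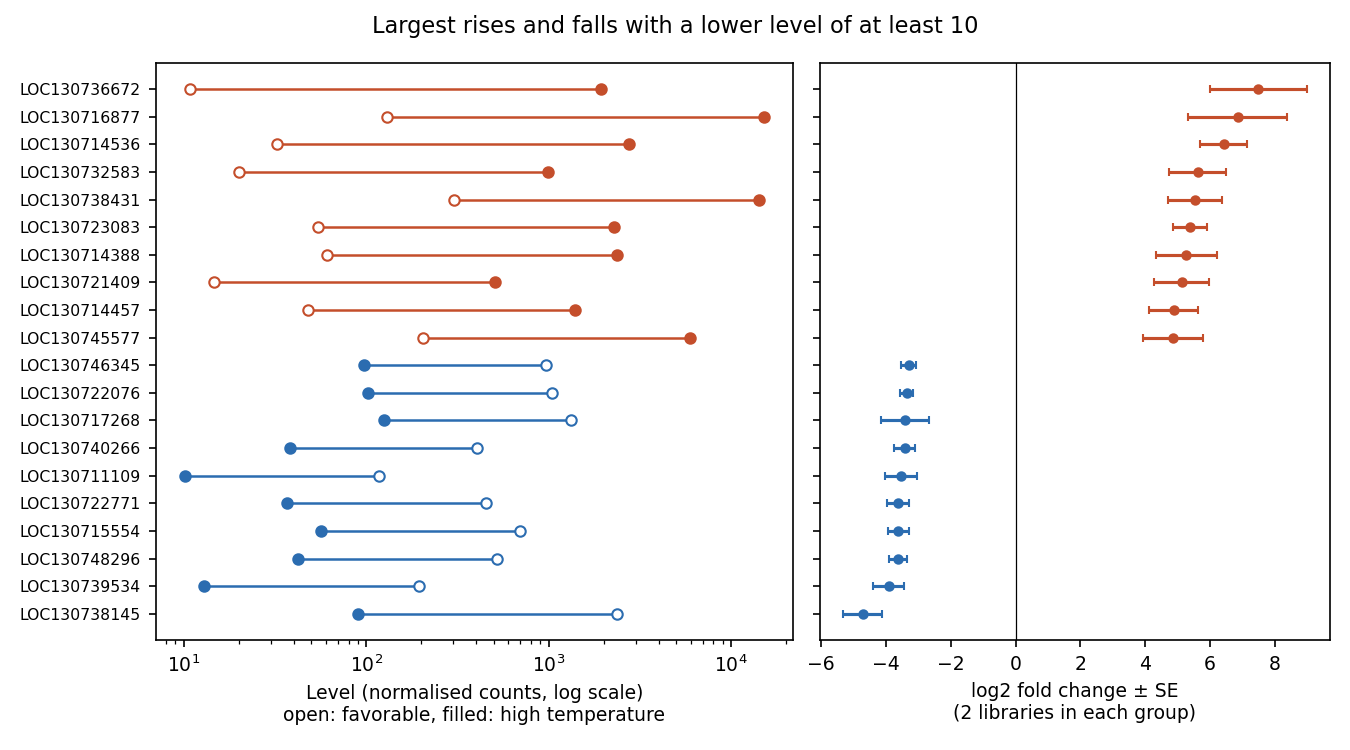
Left, level at the favorable (open) and high temperature (filled) in normalised counts on a log axis for the 10 largest rises (orange) and 10 largest falls (blue) among genes with a lower level of at least 10. Right, their deposited log2 fold changes with standard errors (2 libraries a group): the rises have errors from 0.52 to 1.52 and the falls from 0.20 to 0.75.

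Replicate spread was larger behind these rises than behind the falls. A coefficient of variation between libraries was solved from each standard error and the gene's 2 levels. DESeq2 moderates it towards the values of genes of like base mean, but such genes could still differ. At a base mean of 724 normalised counts, LOC130728248 had 0.162 and LOC130714457 0.517. The coefficient was above 0.5 in 8 of the 10 largest rises and in 1 of the 10 largest falls. Its ranges were 0.348 to 1.05 and 0.117 to 0.515. The highest values of the 10 rises were those of LOC130716877 (1.05) and LOC130736672 (1.01), and at such a spread 2 libraries of a group can differ severalfold. Over genes with base means of 100 or more, it was above 0.5 in 23 of 541 rises and 6 of 573 falls. The median log2 fold change of those 23 rises was 4.39, against 1.47 for the other rises. Genes with a large spread need a large fold to be listed, and the part of single libraries in these rises was not tested.

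In the bulk of the list, rises and falls were alike in this derived spread, which the moderation by base mean favours. With both levels at 50 or more normalised counts, the median coefficient of variation was 0.160 in 503 rising genes and 0.149 in 575 falling genes. Over the whole list, the coefficient was above 0.5 in 8.37% of rises and 3.16% of falls. The 5 strongest rises by p had values from 0.0892 to 0.162 and the 5 strongest falls from 0.0955 to 0.117, and that ranking favours small errors, since it divides the fold by its error. In 19 genes the standard error was below what counting alone would give at the derived levels, and no spread was derived for them. Where the lower level is under 1 normalised count, as in LOC130740042 (0.186), that level is itself a fitted value.

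**Figure D3:**
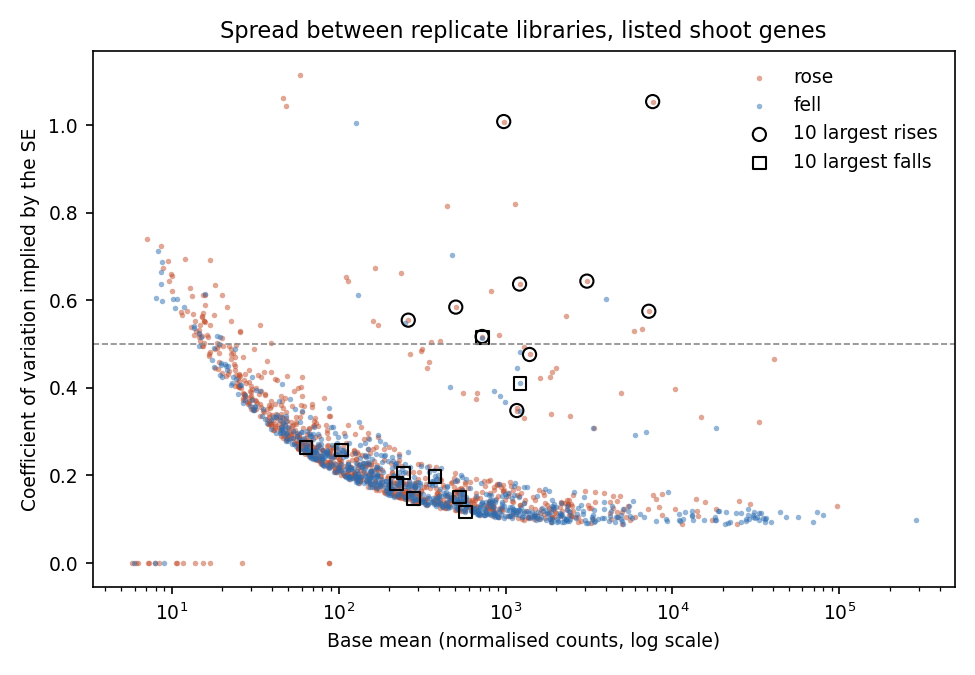
Coefficient of variation implied by the deposited standard error (y axis) against base mean (normalised counts, log x axis) for genes that rose (orange) and fell (blue); points at 0 are the 19 genes with no derived spread. Circles mark the 10 largest rises, 8 of them above the dashed line at 0.5, and squares the 10 largest falls, 1 of them above it.

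Of the 1667 genes, 1039 were listed in this comparison alone and 628 in at least 1 of the others. The share of all genes tested in the other lists together was not worked out, so these 2 counts are description only. Shares for each comparison follow. The same temperature contrast at low P (6.4 µM phosphate) used other libraries, and 4.16% of its 20438 tested genes were listed there. Of the genes that rose at sufficient P, 14.8% were also listed as rising at low P and 3.74% as falling, beside 1.74% and 2.43% of all genes tested there. Of the genes that fell, 12.6% were listed as falling at low P and 3.95% as rising. The share listed at low P in either direction was higher among large changes, at 23.8% of the 370 rises and 27.9% of the 147 falls of at least 4-fold. The 294 genes in both lists are 17.6% of the list at sufficient P and 34.5% of the list at low P.

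Low P in roots was compared at each temperature, and 10.1% and 4.05% of the genes tested were listed at the favorable and the high temperature. Root and shoot comparisons hold treatment groups in common, though no library. In the favorable-temperature roots, 4.67% of genes tested rose at low P and 5.46% fell. Among genes that fell in warm shoots, 3.16% rose and 19.1% fell there. Among genes that rose in warm shoots, 12.7% rose and 7.49% fell there. In warm roots, 2.27% of genes tested rose at low P and 1.78% fell. The shares there were 4.63% and 6.94% of shoot rises, and 2.50% and 5.14% of shoot falls, in the same order. Of the 10 largest shoot falls, 6 fell in cool low-P roots too. In warm low-P roots, 4 of these 10 fell, and LOC130711109 rose. Of the 10 largest rises, 2 (LOC130736672 and LOC130716877) rose in low-P roots at both temperatures.

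**Figure D4:**
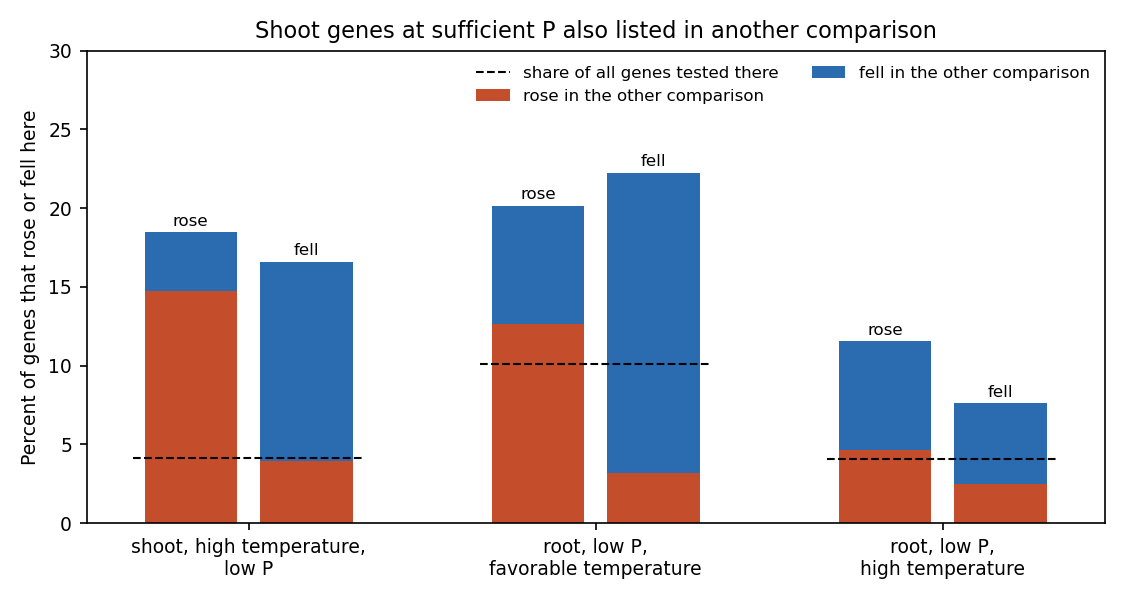
Percent of the 908 genes that rose and the 759 that fell in warm shoots at sufficient P (bar labels) that were listed as rising (orange) or falling (blue) in each other comparison. Dashed lines give the share of all genes tested that were listed there in either direction, 4.16%, 10.1% and 4.05%.

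In all 4 comparisons 23 genes were listed, a count with no share over all genes tested to set it against. Of these, 3 rose in every comparison and 3 fell in every one. The others changed direction between comparisons, and in 6 of them a rise in both shoot comparisons went with a fall in both root ones. The 5 with the highest base mean were LOC130740468, LOC130718581, LOC130729594, LOC130710931 and LOC130746616. LOC130740468 fell in warm shoots at sufficient P from 10411 to 2443 normalised counts (-2.09 log2 units, SE 0.16, by the authors' deposited table). The authors' deposited tables also give it -1.96 log2 units (SE 0.19) in warm shoots at low P, and in low-P roots -1.94 (SE 0.25) when cool and -1.80 (SE 0.24) when warm. LOC130746616 likewise fell in each of the 4. LOC130729594 and LOC130718581 rose in each, and in shoots at sufficient P the authors' deposited table gives them 2.32 (SE 0.22) and 4.09 log2 units (SE 0.77). LOC130710931 was 1 of 5 genes that fell in both shoot comparisons and rose in both root ones. It rose in low-P roots (2.95, SE 0.27, and 1.89, SE 0.27) and fell in warm shoots at sufficient P (-2.39, SE 0.87) and at low P (-4.23, SE 0.25), in the authors' deposited tables.

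For the 294 shoot genes listed at both supplies, the temperature folds could be set against each other with their errors. They were compared by the difference of the log2 folds over its standard error (two-sided normal test), adjusted by Benjamini-Hochberg over the 294 genes, which were all selected by both of their folds. The difference passed for 103 genes. These are all 64 genes listed in opposite directions, for which passing follows from the listing, and 39 of the 230 that moved the same way. Of the latter, 15 passed a Bonferroni limit and 16 passed with errors raised by 1.5 times. In 134 genes that rose at both supplies the median log2 fold change was 2.11 at sufficient P and 1.56 at low P, and the difference passed for 33. In 96 genes that fell at both, the medians were -1.53 and -1.60, and it passed for 6. For 47 genes the 95% interval of the difference lay within 1 log2 unit of 0 on either side.

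Of the 10 largest rises at sufficient P, 2 were listed at low P, both as rises. Of the 10 largest falls, 4 were listed there, 2 of them as falls. By p, 4 of the 5 strongest rises and 1 of the 5 strongest falls were listed there, in the same direction. Some strong responses had similar fold estimates at both supplies. LOC130749566 had log2 fold changes of 3.42 (SE 0.20) at sufficient P and 3.59 (SE 0.24) at low P in the authors' deposited tables, a difference of 0.16 (95% interval -0.46 to 0.78). The fall of LOC130714495 also differed little, by 0.18 (-0.26 to 0.62). The falls of LOC130738147 and LOC130732917 were smaller at low P, with differences of 0.58 (0.06 to 1.10) and 0.82 (0.35 to 1.29). Of these 2 differences, only that of LOC130732917 passed the test. For LOC130718498 the folds were 4.30 (SE 0.22) and 4.15 (SE 0.70) in the authors' deposited tables, and the interval of the difference was wide, from -1.57 to 1.28. LOC130732583, one of the 10 largest rises, went from 20.2 to 986 normalised counts at sufficient P and from 11.7 to 584 at low P. Its difference of 0.03 had a wide interval too, of -1.90 to 1.95. Closeness is therefore not shown for LOC130718498 or LOC130732583.

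Other responses, picked for their strength at sufficient P, were smaller at low P, which such a pick favours. Over all genes that moved the same way at both supplies, the change was larger at sufficient P in 99 of 134 rises and 41 of 96 falls. LOC130728248 had a log2 fold change of 3.99 (SE 0.26) at sufficient P and 2.12 (SE 0.19) at low P in the authors' deposited tables, a difference of -1.87 (SE 0.32, adjusted p = 4.23e-08 by the normal test of the difference). LOC130710575 differed by -2.22 (SE 0.38) and LOC130714457 by -3.67 (SE 0.81), both past the same test. Their favorable-temperature levels were higher in the low-P comparison, at 374 against 187 normalised counts for LOC130710575 and 1797 against 47.8 for LOC130714457. The comparisons were normalised separately, so levels of one are not tested against levels of the other.

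The remaining 64 genes moved in opposite directions at the 2 supplies, and all of them pass the test of the difference by their selection. Of these, 30 fell at sufficient P and rose at low P. Their median levels at sufficient P were 524 normalised counts when cool and 137 when warm, and 146 and 520 at low P. In 29 of the 30, both the favorable level at sufficient P and the high-temperature level at low P exceeded the other 2 levels. The other 34 genes rose at sufficient P, with median levels of 21.8 and 86.4 normalised counts, and fell at low P, with 249 and 97.4. In 15 of the 34, both the favorable level at sufficient P and the high-temperature level at low P lay below the other 2 levels. Opposite folds around a like mean give these arrangements by themselves. The favorable level was higher in the low-P comparison than in the one at sufficient P in all 34 of these genes and in 0 of the other 30, each on its own normalisation.

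LOC130722089 had the highest counts of the 5 genes with the largest turn from fall to rise. It fell from 6602 to 1678 normalised counts at sufficient P (log2 fold change -1.98, SE 0.14) and rose from 1294 to 8897 at low P (2.78, SE 0.17), with folds from the authors' deposited tables. LOC130720294 fell from 415 to 43.2 normalised counts and rose from 23.2 to 224 in the same order. LOC130748296 (521 to 42.0, then 44.8 to 227 normalised counts), LOC130746349 (526 to 181, then 60.3 to 792) and LOC130738654 (236 to 65.1, then 77.6 to 563) did likewise. That all 5 were lower when warm at sufficient P and higher when warm at low P follows from how they were picked. LOC130746345, with -3.30 (SE 0.24) and 1.16 (SE 0.38) in the authors' deposited tables, lies 7 protein-coding genes from LOC130746349 in the reference order. No other pair of the 64 genes was separated by fewer than 10 such genes.

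The 5 genes with the largest turn the other way had low counts at sufficient P. LOC130720547 rose from 8.18 to 64.0 normalised counts at sufficient P (log2 fold change 2.97, SE 0.67) and fell from 115 to 20.5 at low P (-2.49, SE 0.48), with folds from the authors' deposited tables. LOC130748755, LOC130747235, LOC130734010 and LOC130740042 reached 16.5 to 26.8 normalised counts at the high temperature at sufficient P, from favorable levels of about 1 or less. Their folds at sufficient P are fitted values with standard errors of 1.28 to 1.78, in the authors' deposited table.

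**Figure D5:**
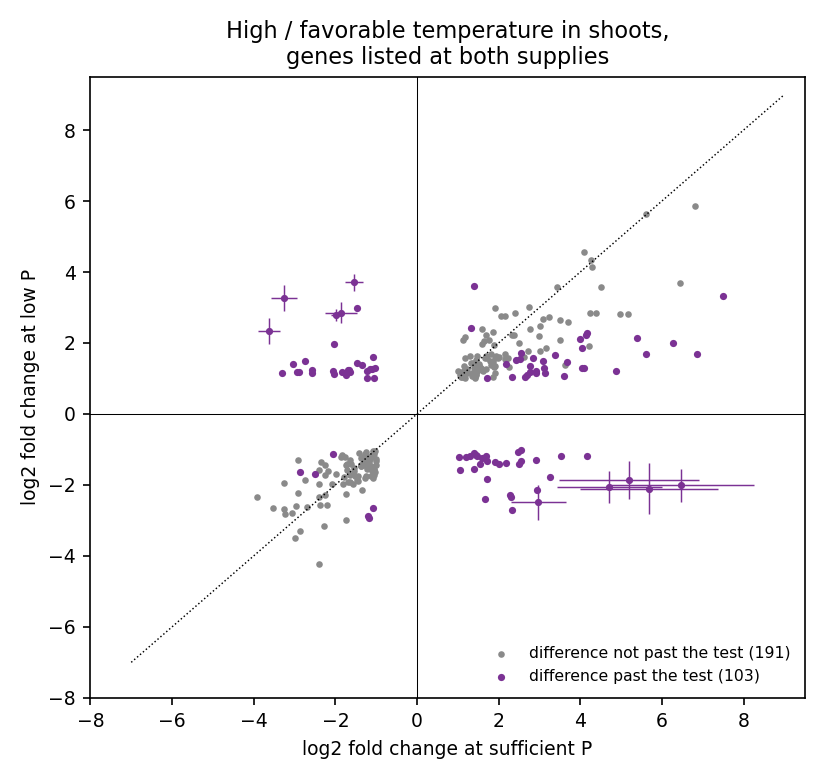
Deposited log2 fold change (high over favorable temperature) at low P (y axis) against that at sufficient P (x axis) for the 294 shoot genes listed at both; purple points passed the test of the difference (103) and grey points did not (191). Bars are standard errors of the 10 genes with the largest differences, and the dotted line marks equal folds; 64 genes lie in the upper left and lower right quadrants.

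Neighbouring genes were also compared. In the order of the 32712 protein-coding genes of the LjGifu_v1.2 reference, tested or not, 5.09% of genes were listed. Counts of pairs and runs are description only, since the numbers that this share alone would give were not worked out. In that order, 137 adjacent pairs had both genes listed. Both moved the same way in 106 of these pairs and opposite ways in 31. Runs of adjacent genes with 1 direction numbered 93 and held 199 listed genes, 63 runs of rises and 30 of falls. Neighbours that are recent copies can share reads, and their sequences were not compared here. The plants were accession MG-20, and whether its gene order is that of this reference was not checked.

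The longest run held 5 rising genes, LOC130717330, LOC130717331, LOC130718267, LOC130720082 and LOC130720871. Their log2 fold changes were 1.31 to 2.28 in the authors' deposited table, and none was listed in another comparison. LOC130718267, with the highest base mean of the 5, rose from 69.5 to 292 normalised counts. A run of 4 falling genes held LOC130711088, LOC130711087, LOC130715333 and LOC130714568, of which LOC130711087 fell most, from 237 to 37.7 normalised counts. Of 8 runs of 3 genes, the first by identifier held LOC130715485, LOC130711325 and LOC130714598, and LOC130711325 fell from 1575 to 330 normalised counts.

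Another run of 3, chosen after its values were seen, joined LOC130738145, LOC130738146 and LOC130738147. It holds both the strongest fall by p and the largest fall by fold among genes with a lower level of at least 10 normalised counts. Its middle gene, LOC130738146, fell from 153 to 60.8 normalised counts. LOC130734339, the next strongest fall by p, lay beside LOC130734340, which went the other way. That neighbour rose from 20.6 to 63.4 normalised counts (1.62 log2 units, SE 0.55, by the authors' deposited table).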

How the data were processed

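Per the labels' protocols, directional poly(A) libraries of shoots were read in pairs of 150 bp. The submitters' processing notes name DESeq2 1.44.0 and RSEM 1.3.3 beside Trimmomatic 0.39.2 and FastQC 0.14.0. Neither settings nor a genome build is given in the sources used here. Per the file headers, the authors deposited a base mean (normalised counts averaged over the libraries), a log2 fold change with its standard error, a Wald statistic (a score), a p-value and an adjusted p-value for each listed gene. Depth per library is unknown. The labels give 5 replicates grown, and the series holds 2 libraries a group. Whether the 2 pools of a group came from separate containers is not stated. The p-values set each fold against an error estimated from these pools, whose spread may be technical.

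All 1667 identifiers matched RefSeq symbols of LjGifu_v1.2 and are protein-coding; that table served for names and gene order only, and no coordinates are given. The level at the favorable temperature was 2 times the base mean over 1 plus the fold. The number tested is the adjusted p over the p of the top gene. The coefficient of variation takes size factors as 1 and 2 libraries a group. The calculations of difference tests, levels and spread were also run on simulated data. The outcome of those runs is not given here, and no conclusion about the listed genes is drawn from them. Python 3.11.15, pandas 2.3.3 and SciPy 1.17.1 were used.

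Members, lists and tests were chosen with earlier results of these data known. Named genes were the 10 largest rises and falls with a lower level of at least 10, the 5 by Wald statistic and the 5 by level difference each way, the 5 largest differences between supplies each way, 5 of the genes in all 4 tables, the 3 longest runs (ties by identifier) and the 3 genes nearest each limit. Product lists and promoter motifs were not used, since the reference holds neither product names nor sequences.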

Additional observations from a re-analysis of the deposited data

Results flagged for a closer look

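The temperature fold differed between the phosphate supplies for 103 of the 294 shoot genes listed at both (normal test of the difference, Benjamini-Hochberg over the 294 genes). Of these, 64 are genes listed in opposite directions, for which passing follows from the listing, and 39 are among the 230 genes that moved the same way at both. The cause was not tested. The 10 genes that follow are all from the 64 and were chosen as the 5 largest differences each way. They are not the 10 largest by absolute size: LOC130732747, which rose at both supplies, had -5.17. Differences of log2 fold changes, low P minus sufficient P, were 6.53 (SE 0.48) for LOC130720294, 5.97 (SE 0.45) for LOC130748296 and 5.26 (SE 0.33) for LOC130746349. They were 4.76 (SE 0.22) for LOC130722089 and 4.72 (SE 0.48) for LOC130738654. In the other direction they were -8.49 (SE 1.84) for LOC130740042, -7.78 (SE 1.84) for LOC130734010 and -7.05 (SE 1.80) for LOC130747235, whose favorable levels at sufficient P were fitted under 1 normalised count. For LOC130748755 the difference was -6.79 (SE 1.36), and for LOC130720547 it was -5.46 (SE 0.83).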

How the results depend on the processing

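Requiring at least a 4-fold change left 517 genes, 370 rises and 147 falls, of which 225 were in another comparison (628 without that limit). A Bonferroni limit over the 20144 genes tested left 893 genes, 462 rises and 431 falls. With a base mean of at least 100, rises fell from 908 to 541 and falls numbered 573, so the balance turned; genes that differed between supplies then numbered 57 against 103. The cause was not tested beyond the fewer genes that each limit keeps. An adjusted p under 0.01, a base mean of at least 10, identical rows counted once, and 2 limits chosen after seeing the data, a coefficient of variation of at most 0.5 (832 rises, 735 falls) and a lower level of at least 10 (760 rises, 711 falls), kept each count within 1.5 times. So did a Bonferroni limit (79 genes) and errors raised by 1.5 times (80 genes) for the difference between supplies, and 1 unlisted gene allowed within runs (133 runs against 93). All 64 genes listed in opposite directions passed under that Bonferroni limit and with raised errors, while those that moved the same way at both supplies fell from 39 to 15 and 16. The 57 genes at base means of 100 or more were 33 opposite and 24 the same way. No paired analysis was possible because each gene has 1 fold and no library columns. For that reason no other count tool and no left-out replicate was run. Motif and product-list alternatives were not run.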
